A study of Homo sapiens with 4 samples.

Results

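The 9 genes described here carry out or control antigen presentation by major histocompatibility complex (MHC) class I: the heavy chains HLA-B, HLA-C, HLA-E and HLA-F, the light chain B2M, the peptide transporter subunits TAP1 and TAP2, the loading factor TAPBP (tapasin) and the transactivator NLRC5. They were chosen by symbol, and all 9 were found among the 20252 rows of the deposited table. Poly(A) RNA had been sequenced from H2030, an established human lung adenocarcinoma line, with 2 libraries carrying the label control vector (vector-labelled below) and 2 the label GALNT3 overexpression (GALNT3-labelled below). GALNT3 encodes an enzyme of the Golgi that places the first sugar of mucin-type O-glycans. All libraries came from cells of passage 5 to 10, kept 2 days in RPMI with 10% fetal bovine serum, with no treatment recorded. The labels do not state the vector or promoter, whether a line is 1 clone or a pool, or whether separate cultures gave the 2 libraries of a group. The spread behind the p-values is that between these libraries and may be technical.

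GALNT3 itself went against its label. It was at 4.34 and 5.34 FPKM in the vector-labelled libraries, and at 0.0164 and 0 FPKM in the GALNT3-labelled ones. FPKM is a fragment count divided by the transcript's length and the library's size. Every direction given here is therefore between libraries as labelled, and would turn if the group labels were exchanged.

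Class I molecules display peptides from inside the cell to CD8+ T cells and to natural killer cells. Peptides cut by the proteasome are pumped into the endoplasmic reticulum by the TAP1 and TAP2 heterodimer, and tapasin holds the empty heavy chain and B2M at the transporter until a peptide binds. NLRC5 is recruited to a conserved promoter element of class I genes, B2M and TAP1, and interferons and NF-kB raise the same genes through nearby sites. Loss of this pathway in tumour cells is a known route of escape from T cells, lung cancer included.

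The promoters of HLA-B, HLA-C, B2M and TAP1 are shown because these genes share regulatory elements and differed in how far apart the groups lay. Each runs from 250 bases before to 50 after the RefSeq start (GRCh38.p14), 5′ to 3′ on the gene's strand. Capitals mark matches on either strand to AANNGAAA (core bound by interferon regulatory factors), the kappa B motif (GGG, 2 free bases, TT, 1 free base, CC), CCAAT (bound by NF-Y) and TGACG (core of cyclic AMP response elements). HLA-B is at chr6:31357130-31357429 and HLA-C at chr6:31272043-31272342, both on the minus strand. B2M is at chr15:44711267-44711566 on the plus strand, and the upstream entry for TAP1 at chr6:32853655-32853954 on the minus strand.
HLA-B: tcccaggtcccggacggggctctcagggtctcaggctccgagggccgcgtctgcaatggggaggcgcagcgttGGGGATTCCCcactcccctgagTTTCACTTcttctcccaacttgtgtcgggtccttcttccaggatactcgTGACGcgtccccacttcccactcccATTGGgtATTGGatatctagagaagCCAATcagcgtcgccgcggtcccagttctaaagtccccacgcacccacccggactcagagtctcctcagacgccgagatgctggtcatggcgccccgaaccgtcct
HLA-C: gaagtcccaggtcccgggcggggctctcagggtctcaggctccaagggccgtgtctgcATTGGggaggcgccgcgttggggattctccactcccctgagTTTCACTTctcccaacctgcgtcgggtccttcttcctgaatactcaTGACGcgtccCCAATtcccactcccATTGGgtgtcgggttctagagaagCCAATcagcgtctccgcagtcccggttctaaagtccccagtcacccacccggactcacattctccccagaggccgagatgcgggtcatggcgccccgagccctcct
B2M: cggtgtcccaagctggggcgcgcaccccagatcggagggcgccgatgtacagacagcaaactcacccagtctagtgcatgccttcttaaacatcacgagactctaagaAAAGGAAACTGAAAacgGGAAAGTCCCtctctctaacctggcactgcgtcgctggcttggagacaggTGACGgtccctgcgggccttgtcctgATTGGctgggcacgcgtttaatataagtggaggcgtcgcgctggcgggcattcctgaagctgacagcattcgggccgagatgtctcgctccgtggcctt
TAP1: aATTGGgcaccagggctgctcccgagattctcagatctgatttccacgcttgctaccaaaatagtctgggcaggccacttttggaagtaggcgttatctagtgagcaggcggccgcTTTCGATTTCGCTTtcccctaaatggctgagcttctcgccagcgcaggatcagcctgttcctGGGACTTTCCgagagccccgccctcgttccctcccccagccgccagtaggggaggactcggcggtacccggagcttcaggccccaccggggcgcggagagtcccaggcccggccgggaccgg

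RefSeq promoters were at hand for 7 of the 9 genes, in 8 entries, since TAP1 has 2. The core AANNGAAA, chosen after the sequences were seen, was present for all 7 of these genes and in 22.8% of all 35116 promoters. Adjacent copies of it overlap by 2 bases in B2M, TAP1, TAP2 and TAPBP. A longer form chosen earlier, GAANNGAAA, which always holds the shorter core, matched HLA-B, HLA-C and TAP2, and 7.66% of all promoters. The kappa B letters were found in HLA-B, B2M, TAP1 and TAPBP, and in 5.68% of all promoters, but not in HLA-C, HLA-F or TAP2. CCAAT was found in 5 of the 7 genes, against 34.6% of promoters, and TGACG in 4 of the 7, against 24.6%. These matches describe letters in a window of the reference and are no evidence of binding. Whether they bear on the differences between the groups was not tested.

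HLA-B, a classical heavy chain that presents peptides to CD8+ T cells, was the one member that passed the test, and it fell. Its level was 51.7 and 46.6 FPKM in vector-labelled libraries 1 and 2, and 27.8 and 30.4 FPKM in GALNT3-labelled libraries 1 and 2. Both libraries of the latter group lay far below both of the former. The group means, 49.1 ± 3.6 and 29.1 ± 1.8 FPKM (SD, n = 2), were 40.8% apart. Limma put the log2(FPKM + 1) difference at -0.74 ± 0.097 (SE; adjusted p = 0.0269 over 10998 genes), and 84 tested genes had a lower value. The call was lost when either vector-labelled library was left out, with an adjusted p of 0.175 without replicate 1 and 0.0803 without replicate 2. It was also lost with every gene above 0 tested (0.175) and without the mean-variance trend (0.0503).

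The other classical heavy chain among the members, HLA-C, which also serves as a ligand of killer cell immunoglobulin-like receptors, was at 15.7 and 14.4 FPKM in vector-labelled libraries 1 and 2. It was at 11.4 and 12.1 FPKM in the GALNT3-labelled ones. The groups did not overlap, and the mean was 22.1% lower, but HLA-C did not pass (log2 difference -0.33 ± 0.095; limma, adjusted p = 0.380).

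HLA-E, a nonclassical heavy chain that shows leader peptides of other class I molecules to the NKG2A receptor, was at 5.05 and 4.04 FPKM in the vector-labelled libraries and at 4.06 and 3.73 FPKM in the others. Here the groups overlapped (log2 difference -0.17 ± 0.13; limma, adjusted p = 0.853). HLA-F, a nonclassical heavy chain that can occur without peptide, was at 2.47 and 1.65 FPKM against 1.36 and 1.49 FPKM. Its groups did not overlap, yet the 2 vector-labelled libraries differed from each other by more than the lower of them differed from the other group (-0.32 ± 0.15; adjusted p = 0.732). Without vector replicate 1 the differences shrank to -0.041 for HLA-E and -0.13 for HLA-F, and without vector replicate 2 they were -0.31 and -0.52.

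B2M, the light chain shared by all class I molecules, was the most abundant member. It stood at 465 and 446 FPKM in vector-labelled libraries 1 and 2 and at 408 and 369 FPKM in the GALNT3-labelled ones. The groups did not overlap, and the mean was 14.6% lower, without passing the test (log2 difference -0.23 ± 0.11; limma, adjusted p = 0.725).

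**Figure D1:**
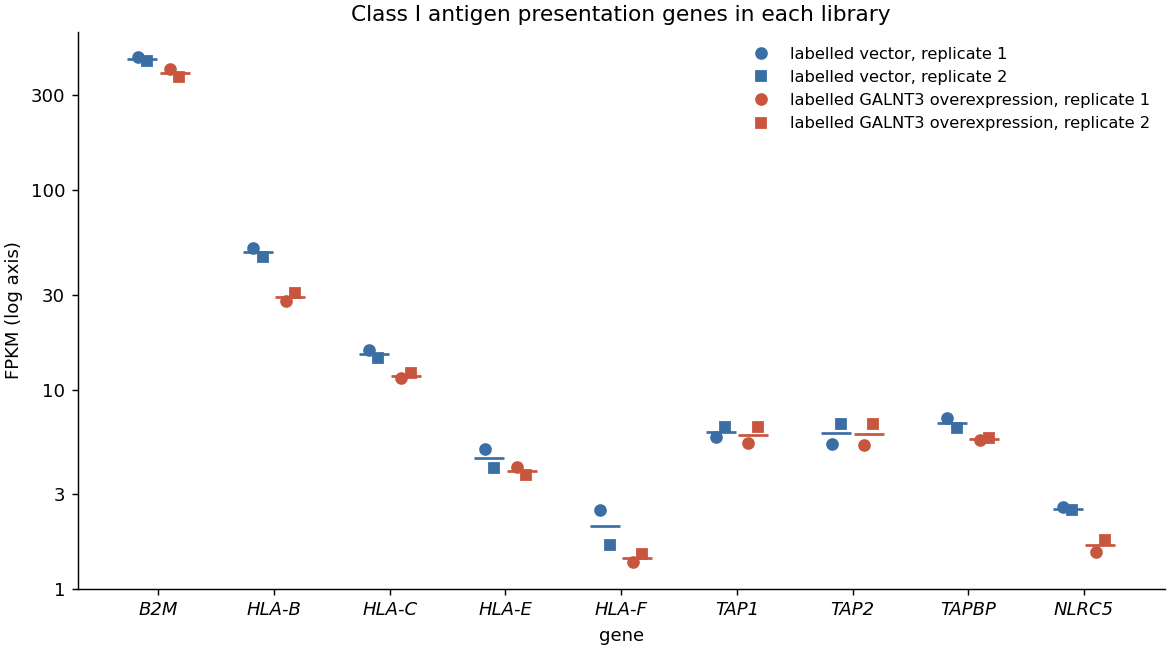
FPKM of each member in the 4 libraries on a log axis, with circles for replicate 1, squares for replicate 2 and a bar at each group mean (n = 2). HLA-B separated from 46.6 and 51.7 FPKM to 27.8 and 30.4 FPKM, while TAP1 and TAP2 overlapped between the groups.

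The transporter genes did not separate the groups. TAP1 was at 5.81 and 6.49 FPKM in vector-labelled libraries 1 and 2 and at 5.39 and 6.45 FPKM in GALNT3-labelled libraries 1 and 2. TAP2 was at 5.32 and 6.74 FPKM against 5.24 and 6.68 FPKM. In both genes replicate 2 was the higher library of each group. Replicate 2 exceeded replicate 1 by 0.18 for TAP1 and 0.30 for TAP2 on the log2(FPKM + 1) scale, while the groups differed by -0.049 (95% interval from limma's standard error, -0.33 to 0.23) and -0.014 (-0.36 to 0.33). The interval of TAP2 holds the difference measured for HLA-C.

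Tapasin, TAPBP, was at 7.20 and 6.38 FPKM in the vector-labelled libraries and at 5.58 and 5.74 FPKM in the GALNT3-labelled ones. The groups did not overlap, and the mean was 16.7% lower, but the test was not passed (log2 difference -0.23 ± 0.11; limma, adjusted p = 0.725). NLRC5 was at 2.57 and 2.48 FPKM against 1.54 and 1.76 FPKM, also without overlap. Its mean was 34.7% lower, which the added pseudocount reduces to a log2 difference of -0.41 ± 0.12 (limma, adjusted p = 0.372). With a pseudocount of 0.1 the NLRC5 difference was -0.59 (0.403).

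Taken by count, 1 of the 9 members passed the test in the lower direction, where 0.391% of all tested genes did. A further 2, HLA-C and NLRC5, had an unadjusted p below 0.05 in that direction, so that 3 of 9 stood against 3.72% of all tested genes. In 6 of 9 members both GALNT3-labelled libraries were below both vector-labelled ones, against 15.3% of tested genes, and in 3, HLA-E, TAP1 and TAP2, the groups overlapped. No member passed in the higher direction (0.109% of tested genes, or 3.62% at an unadjusted p below 0.05), and in none were both GALNT3-labelled libraries above the others (20.9%). All 9 differences were negative, with a median of -0.23 on the log2 scale, where the median of all tested genes was 0.016 and 4920 of 10998 were negative. The members were named with earlier results of these data known, so these counts are a description. In RNA from a whole culture, fewer cells with a transcript and less transcript per cell cannot be told apart.

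**Figure D2:**
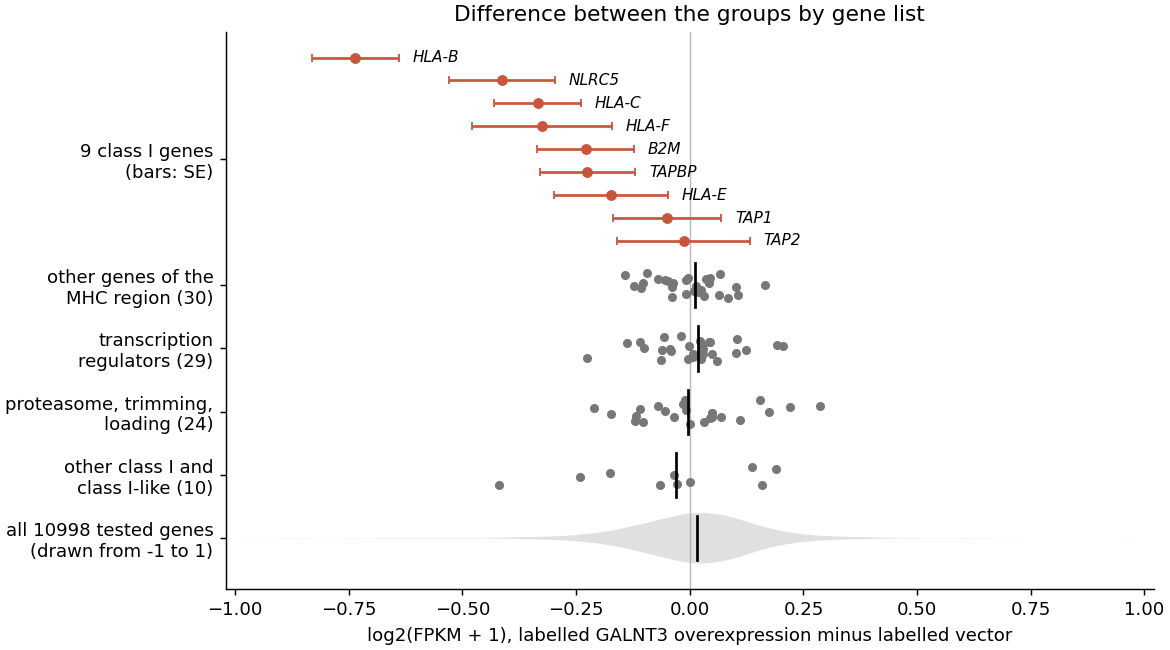
Difference in log2(FPKM + 1), labelled GALNT3 overexpression minus labelled vector, for the 9 members with their SE, for 4 related lists (1 point a gene, line at the median) and for all tested genes (grey density, with 73 genes beyond 1 in either direction not drawn). HLA-B lies lowest at -0.74, TAP1 and TAP2 lie close to 0, and the list medians run from -0.031 to 0.019.

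In order of level per transcript length, B2M came first and HLA-B next, followed by HLA-C, and the ranges of these 3 did not touch over the 4 libraries. TAPBP (5.58 to 7.20 FPKM), TAP1 (5.39 to 6.49) and TAP2 (5.24 to 6.74) followed and could not be ordered among themselves. HLA-E (3.73 to 5.05 FPKM) lay below them. HLA-F (1.36 to 2.47) and NLRC5 (1.54 to 2.57) were lowest and overlapped.

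Ratios within a library do not move with the scaling of that library. The HLA-B level was 3.28 and 3.23 times that of HLA-C in vector-labelled libraries 1 and 2, and 2.43 and 2.52 times in the GALNT3-labelled ones. The mean ratio went from 3.26 ± 0.034 to 2.48 ± 0.060 (SD, n = 2), a log2 difference of -0.40 (exact permutation test, two-sided, p = 0.333, the smallest that 2 against 2 allows). Against B2M, the HLA-B level was 0.111 and 0.104 in the vector-labelled libraries, and 0.0681 and 0.0823 in the others. That is a log2 difference of -0.53 (exact permutation test, p = 0.333). Summed over the 4 heavy chains among the members, the level was 74.9 and 66.7 FPKM against 44.6 and 47.7 FPKM, of which HLA-B gave 68.9% and 69.9% against 62.3% and 63.7%. B2M exceeded this sum 6.21 and 6.69 times in the vector-labelled libraries, and 9.15 and 7.75 times in the GALNT3-labelled ones.

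**Figure D3:**
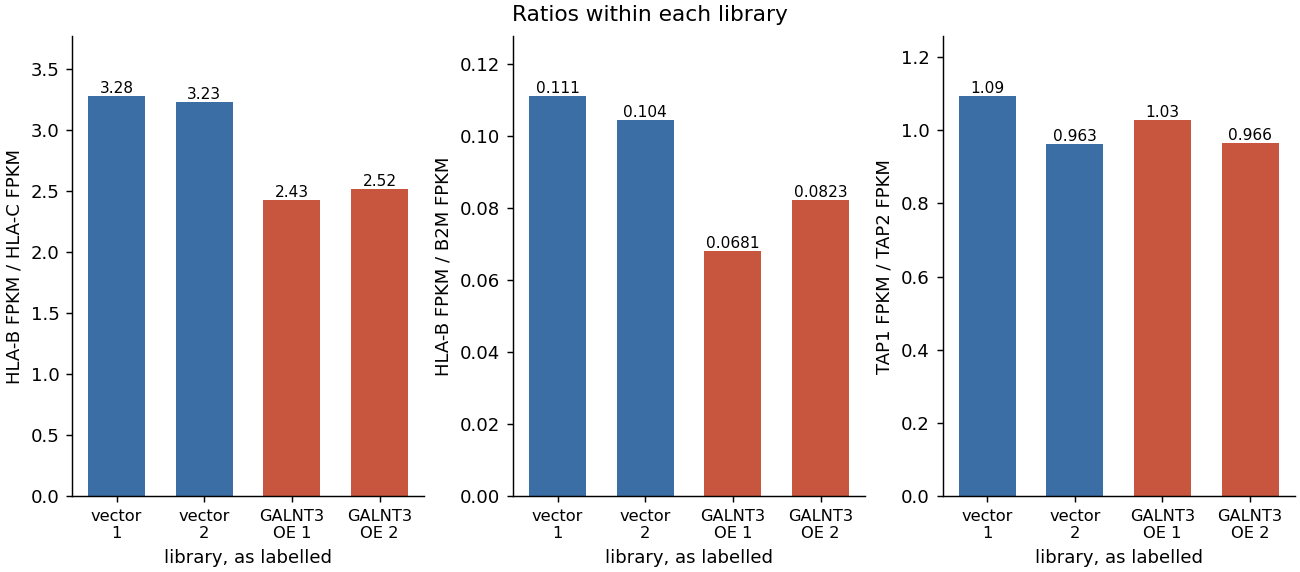
Ratios of FPKM within each library, 1 bar a library. HLA-B to HLA-C and HLA-B to B2M are lower in both GALNT3-labelled libraries (2.43 and 2.52, 0.0681 and 0.0823), while TAP1 to TAP2 stays between 0.963 and 1.09 with no separation of the groups.

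HLA paralogs can exchange fragments, so their sequences were compared in GENCODE 29 (GRCh38). Of all 50-base words of the longest coding transcript, 97.5% for HLA-B, 93.3% for HLA-C, 94.9% for HLA-E and 98.3% for HLA-F occurred in no other gene's transcripts. With 75-base words the shares were 100%, 98.0%, 98.0% and 100%. HLA-B shared 30 of its 1498 words of 50 bases with HLA-C. B2M and NLRC5 shared none. TAP2 was the exception among the members, with 64.2% of its 50-base words in no other gene. It shared 35.8% with AL669918.1, a coding gene annotated over the same bases. These figures hold for the reference alleles. H2030 carries its own HLA alleles, and how well their fragments were assigned was not tested.

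HLA-B spans 31269491 to 31357188 on the minus strand of chromosome 6 in GENCODE 29, and as annotated there it overlaps HLA-C (31268749 to 31272130) by 2640 bases. HLA-F (29722775 to 29738528) and HLA-E (30489467 to 30494205) lie on the plus strand of the same chromosome. TAP2 (32821833 to 32838780), TAP1 (32845209 to 32853978) and TAPBP (33299694 to 33314387) lie on its minus strand. B2M is on chromosome 15 (44711487 to 44718877) and NLRC5 on chromosome 16 (56989485 to 57083531), both on the plus strand. TAP1 is overlapped on the other strand by PSMB9 over 8770 bases, and HLA-F by HLA-F-AS1 over 11928 bases. The library kit keeps strand, but the labels do not say whether counting used it, so fragments of such pairs may not have been told apart. PSMB9 was at 6.50 and 5.73 FPKM against 6.44 and 6.22 FPKM, and HLA-F-AS1 was at most 0.253 FPKM in a library.

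The depth of the libraries is known only in relative terms, from 0.966 to 1.07 of their mean. Steps in the low values put 1 fragment on 1 kilobase at 0.0613 FPKM (median of 689 low genes, quartiles 0.0536 and 0.105). On that scale HLA-B rested on about 682 to 1399 fragments a library and NLRC5 on about 166 to 307, counted on the longest coding transcript. HLA-F rested on about 35 to 71, so that counting error alone is about 16.9% at its lowest value, against 3.83% for HLA-B. Rows of the table are partly out of alphabetical order, among them those of HLA-B and NLRC5. Low genes of such rows gave 0.0588 FPKM per fragment and kilobase and those of ordered rows 0.0631.

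Other genes of the pathway were counted from lists. Of 10 tested class I and class I-like molecules outside the members, 0 passed in limma and 2 had an unadjusted p below 0.05, both lower. Over all tested genes 3.72% had such a p in the lower direction, while 0.391% passed lower and 0.109% higher. PROCR, the endothelial protein C receptor, which has a class I-like fold, was at 22.0 and 20.0 FPKM against 17.6 and 17.6 FPKM (adjusted p = 0.594). HFE, a class I-like regulator of iron uptake, was at 10.1 and 8.56 FPKM against 8.30 and 7.93 FPKM (adjusted p = 0.814). ULBP2, a ligand of the activating receptor NKG2D, was at 7.87 and 6.87 FPKM against 7.10 and 7.28 FPKM (0.978). The list's median difference was -0.031 on the log2 scale, with 6 of 10 negative.

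Of 24 tested genes of the proteasome, of peptide trimming and of loading, 0 passed in limma. Over all tested genes 0.391% passed lower and 0.109% higher. At an unadjusted p below 0.05, where 3.62% of all tested genes were higher, 2 of the 24 were higher and 0 lower. These were PSMB7, a catalytic subunit of the constitutive proteasome (155 and 147 FPKM against 184 and 184 FPKM; adjusted p = 0.454), and HSPA5, the chaperone BiP (154 and 149.7 FPKM against 174 and 181 FPKM; 0.643). The immunoproteasome subunits that interferon induces did not pass. PSMB8 was at 10.7 and 10.3 FPKM against 9.72 and 9.72 FPKM, lower without overlap (limma, adjusted p = 0.892). PSMB10 was at 24.2 and 26.5 FPKM against 26.6 and 23.6 FPKM, with overlap (0.992). Among the most abundant genes of the list, PSMB5 (393 ± 38 against 443 ± 6.2 FPKM), PSMB6 (282 ± 20 against 304 ± 16), PSME2 (230.0 ± 24 against 235 ± 8.7) and CALR, the chaperone calreticulin (411 ± 24 against 392 ± 7.3), did not pass (SD, n = 2). The median difference of the 24 was -0.0037, with 12 negative. Both GALNT3-labelled libraries were below the others in 3 of the 24, PSMB8 among them, and above them in 5. Over all tested genes these shares were 15.3% and 20.9%.

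Of 29 tested regulators of class I transcription, 0 passed in limma, also at an unadjusted p below 0.05, and the median difference was 0.019. Over all tested genes 0.391% passed lower and 0.109% higher, and 3.72% and 3.62% had an unadjusted p below 0.05. Both GALNT3-labelled libraries were below the others in 2 of the 29 and above them in 0. Over all tested genes these shares were 15.3% and 20.9%. RFX5 and RFXANK, subunits of the RFX complex that binds with NLRC5, were at 36.6 ± 0.31 and 34.4 ± 1.1 FPKM in the vector-labelled libraries and at 36.5 ± 2.7 and 34.9 ± 0.45 FPKM in the others (SD, n = 2). JAK1, a kinase of interferon receptors, was at 33.7 ± 3.4 against 34.3 ± 0.87 FPKM, and NFKB2 at 57.2 ± 7.9 against 56.4 ± 6.5 FPKM. IRF1, an activator of class I promoters, was at 7.45 and 5.40 FPKM against 7.35 and 5.89 FPKM, following replicate number and not group. IRF1 was picked from the list after its values were seen, as were PSMB8 and PSMB10.

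MHC class II genes had low or no listed values. Of 15 class II genes 7 were listed at 0 in all 4 libraries, among them the transactivator CIITA and HLA-DRA, and 14 were below 1 FPKM in every library. A listed 0 need not mean that a transcript is absent, since RNF5, a broadly expressed ubiquitin ligase gene of the MHC region, was also listed at 0 in all 4 libraries. The exception, IFI30, a lysosomal thiol reductase, was at 4.15 and 3.0 FPKM against 3.35 and 2.70 FPKM (limma, adjusted p = 0.885). The others among the most abundant, HLA-DMA, CTSS and CD74, reached at most 0.231, 0.169 and 0.110 FPKM in a library. Of 30 tested genes of the MHC region on chromosome 6 that do not act in presentation, 0 passed in limma, also at an unadjusted p below 0.05. The shares of all tested genes were 0.391% lower and 0.109% higher, and at an unadjusted p below 0.05 3.72% and 3.62%, so few calls were to be had in 30 genes. The median difference of the 30 was 0.011, running from -0.14 to 0.17. Both GALNT3-labelled libraries were below the others in 5 of the 30 and above them in 5, against 15.3% and 20.9% of all tested genes. RPS18, TUBB, CUTA and IER3, the most abundant of these, were at 1428 ± 9.2, 136 ± 2.1, 67.0 ± 9.8 and 23.9 ± 3.0 FPKM in the vector-labelled libraries, and at 1447 ± 198, 139.9 ± 9.4, 64.2 ± 3.7 and 22.1 ± 2.3 FPKM in the others (SD, n = 2).

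Genes whose profile was most like that of HLA-B were sought among the 5711 other genes that averaged 10 FPKM or more, by the root mean square difference of log2 values centred on each gene's mean over the 4 libraries. The nearest were S100A16, a calcium-binding protein (difference 0.058), CD68, a lysosomal glycoprotein (0.067), the nuclear noncoding RNA NEAT1 (0.084), LGALS3BP, a secreted galectin ligand (0.093), and OCIAD2 (0.0996). Over 4 libraries such likeness has little resolution. Being chosen for a profile like that of HLA-B, these 5 genes were also lower in the GALNT3-labelled libraries. In limma S100A16 (adjusted p = 0.0251), CD68 (0.0238), NEAT1 (0.0401) and OCIAD2 (0.0406) passed, and LGALS3BP did not (0.163). Among the members, taken without the limit of 10 FPKM, NLRC5 (0.17) and HLA-C (0.20) lay nearest to HLA-B and TAP2 farthest (0.40). The log2 differences of these 3 between the groups were -0.41, -0.33 and -0.014. Their order is no separate result, since likeness and difference were computed from the same 4 values.

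Markers of other cells were looked up, since leukocytes carry much class I. The summed level of 13 leukocyte markers was 32.3 and 29.2 FPKM in the vector-labelled libraries and 19.3 and 17.6 FPKM in the others. CD68, a marker of macrophages that epithelial cells also express in lysosomes, made up most of it and fell, with group means of 28.2 ± 1.5 and 16.7 ± 0.52 FPKM (SD, n = 2) and a limma adjusted p of 0.0238. Of the 13 markers 5 were listed at 0 in all 4 libraries, among them CD3E, CD3D, MS4A1 and TYROBP, and PTPRC, the pan-leukocyte antigen CD45, reached 0.0098 FPKM in 1 library. FCER1G, the gamma chain of Fc receptors, was at 1.19 and 1.55 FPKM against 1.05 and 0.792 FPKM, without overlap (limma, adjusted p = 0.731). CD14, a monocyte antigen, was at 1.31 and 0.381 FPKM against 1.07 and 0.307 FPKM. NKG7 reached at most 0.368 FPKM, and LAPTM5 was at 0.0224 and 0.0487 FPKM in the vector-labelled libraries and listed at 0 in the others. CD163 went the other way, at 0.0117 and 0 FPKM against 0.0129 and 0.0130 FPKM. The part of these markers in the difference of HLA-B was not tested. Endothelial markers summed to 0.246 to 0.638 FPKM. Most of that was CDH5, at 0.314 and 0.240 FPKM against 0.333 and 0.620 FPKM, higher without overlap. Fibroblast markers summed to 3.95 to 5.02 FPKM, most of it COL1A1 (3.57 to 4.89 FPKM). LUM was at 0.502 and 0.467 FPKM against 0.184 and 0.0531 FPKM, and the other fibroblast markers overlapped between the groups. Of the epithelial markers, KRT18 was at 370 and 331 FPKM against 439 and 420 FPKM, and KRT8 at 141 and 109 FPKM against 145 and 144 FPKM. Both were higher without overlap in the GALNT3-labelled libraries (limma, adjusted p = 0.570 and 0.801). KRT7 was lower without overlap, at 7.50 and 7.18 FPKM against 4.24 and 5.18 FPKM (limma, adjusted p = 0.165). EPCAM, CLDN4 and CDH1 had means below 1 FPKM over the 4 libraries, and KRT19 was listed at 0. Without overlap, EPCAM and CDH1 were higher and CLDN4 was lower.

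**Figure D4:**
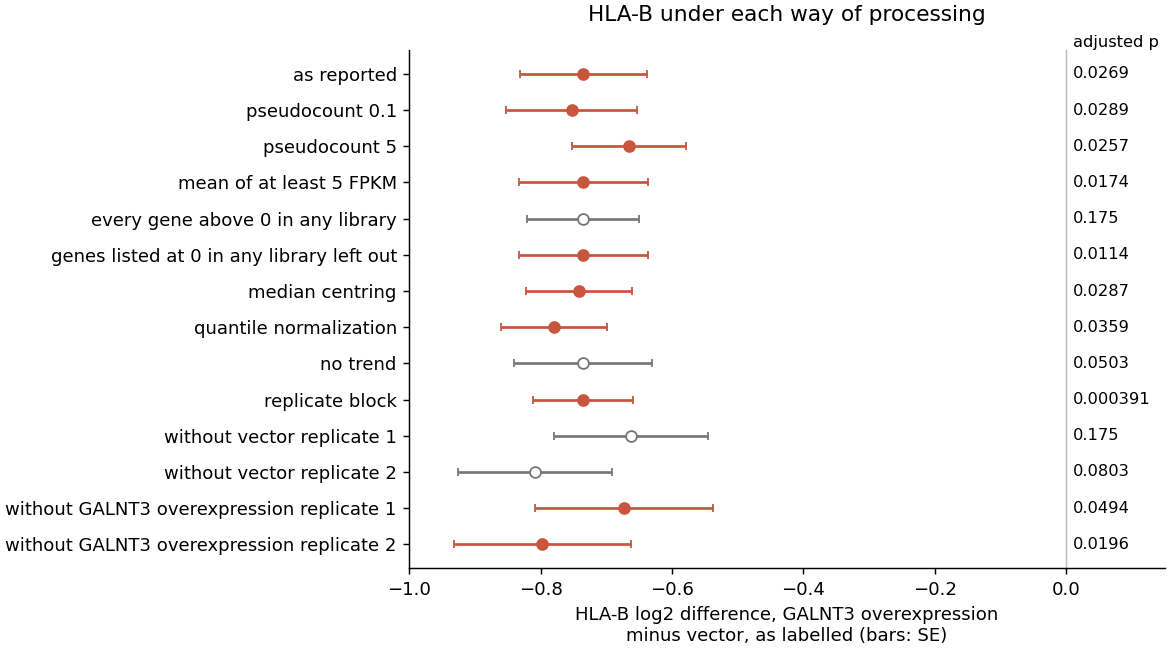
Log2 difference of HLA-B with its SE under the reported processing and 13 alternatives, with the limma adjusted p at the right and filled red points where it is below 0.05. The difference stays between -0.81 and -0.66, and the call is lost under 4 of the 13 alternatives.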

How the data were processed

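The deposited table holds 20252 gene symbols, with values for each library that were read as FPKM because of their range and steps (the file header gives no unit). The columns sum to 401366 to 448194. The submitters' processing notes list TopHat, GenomeStudio 2010.1, GRCh38 and hg19 with no roles, and the counter and annotation are not stated there. FPKM depends on the other genes of a library, and fragments of overlapping or near-identical genes can be exchanged. No column was left unassigned.

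The 10998 genes that averaged 1 FPKM or more (all 9 members included) were transformed to log2(FPKM + 1), which understates differences of low genes. They were compared with limma 3.58.1 in R 4.3.3 (lmFit, eBayes with trend, group as the only term), two-sided, adjusted by the Benjamini-Hochberg method over all tested genes, threshold 0.05. With 2 libraries a group, calls rest on the variance shared between genes (2 residual and 5.34 prior degrees of freedom). The procedure was also run on simulated data. Spreads were shuffled among genes there, so that run cannot test the use of the mean-variance trend. Tables and sequence searches were made in Python 3.11.15.

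The members and lists were chosen with earlier results of these data known. All members are named, and of each related list every gene that passed and the 4 with the highest mean. Some genes of these lists are counted but not reported by name here. Alternatives were the pseudocount, the filter, genes listed at 0, the scaling, the trend, a replicate block and each library left out.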

Additional observations from a re-analysis of the deposited data

How the results depend on the processing

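HLA-B was lower in the libraries labelled GALNT3 overexpression under all 13 alternatives. It did not pass with every gene above 0 tested (log2 difference -0.74; limma, adjusted p = 0.175) or without the trend (-0.74; 0.0503), and over the fits that left out 1 library its difference ran from -0.81 to -0.66 (adjusted p 0.0196 to 0.175). The number of members that passed was 0 with every gene above 0 and without the trend, and 0 to 1 with a library left out. Over all genes the 55 calls became 31 with a mean of at least 5 FPKM, 12 with every gene above 0, and 23 to 83 with a library left out (23 without vector replicate 1, 83 without GALNT3 overexpression replicate 2). The cause was not tested.

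Replicate numbers are shared between the groups, but nothing in the labels says that they pair the libraries. Deviations of same-numbered libraries from their group means correlated at 0.22 across tested genes. With the replicate block 443 genes passed (4.03% of those tested), 3 members among them: HLA-B (adjusted p = 3.91e-04), HLA-C (0.0460) and B2M (0.0350). In the related lists 2 genes passed with the block, PSMB7 among them, against 0 otherwise.

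TAP1 and TAP2 changed sign when a library was left out, from -0.16 to 0.061 and from -0.16 to 0.14. Their differences were positive without vector replicate 2 (0.020 for TAP1, 0.13 for TAP2), and also when GALNT3 overexpression replicate 1 was left out (0.061 and 0.14). HLA-C, HLA-E, HLA-F, B2M, TAPBP and NLRC5 kept a negative difference in each fit run, but its size moved. Without vector replicate 1 it was -0.041 for HLA-E, -0.13 for HLA-F and -0.15 for TAPBP, and without vector replicate 2 it was -0.31 for HLA-E and -0.52 for HLA-F. The ratios were repeated without each library in turn, an alternative chosen after seeing the data. HLA-B to HLA-C ran from -0.42 to -0.37 and HLA-B to B2M from -0.66 to -0.39 on the log2 scale.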
